A study of Ovis aries with 18 samples.

Results

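Genes of the amino acid stress response and of serine synthesis were examined in embryos sired by rams fed methionine and by control rams. The 9 genes were chosen by name, from knowledge of the pathway and with earlier results of these data known. They were the transcription factor ATF4 and 5 genes placed downstream of it or linked to it (DDIT3, TRIB3, ASNS, CHAC1 and SESN2). The 3 enzymes of serine synthesis (PHGDH, PSAT1 and PSPH) made up the rest. Of the 9 genes, 7 had a row under their symbol in the count table of 20092 genes. All 7 passed the filter on low counts, as did 16488 genes in all. ATF4 and PSPH were not analysed here.

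When amino acids run short, the kinase GCN2 phosphorylates the translation factor eIF2, and when unfolded proteins build up in the endoplasmic reticulum (ER) the kinase PERK does the same. General translation then falls while translation of ATF4 mRNA rises, and ATF4 induces genes for amino acid synthesis, uptake and stress signalling. Serine is made from a glycolytic intermediate by PHGDH, PSAT1 and PSPH in turn, and it feeds the folate and methionine cycles with one-carbon units, the link between these genes and a methionine diet.

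Polypay rams received a basal diet alone (control) or the basal diet with a top-dress of 1.5 g (0.22%) rumen-protected methionine, over 77 days, starting at 88 days of age on average. They were then bred to superovulated ewes that did not receive the supplement, and embryos were flushed on day 8 after the rams were introduced. RNA of 12 pools of 5 embryos was amplified as a whole transcriptome and sequenced, with 6 pools per diet. Control Ram410, Ram423 and Ram444 had 2 pools each, whereas of the methionine-treated rams Ram424 had 4, Ram498 had 1 and Ram511 had 1. Pools of a ram share the sire and, outside Ram424, the ewe, so sire and ewe cannot be told apart, and p-values over pools treat as independent pools that are not. Total counts per pool ran from 1173289 to 1554651 in the control group and 1017847 to 2398589 in the methionine group. In such bulk pools, fewer cells of a type and less RNA per cell cannot be told apart.

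A pair of pools stood apart from the rest. The median Spearman correlation with the other pools was 0.582 for Embryo444_2 (control) and 0.600 for Embryo511_1 (methionine), whereas it was 0.820 to 0.857 for the other 10 pools. The trophectoderm is the outer epithelium of the blastocyst, and 6 of its 7 listed markers were in the table. Their summed level was 5124 to 14328 CPM (counts per 1000000 reads) in the other 10 pools, 195 CPM in Embryo444_2 and 128 CPM in Embryo511_1. KRT8, the most abundant of these markers, had 116 CPM in Embryo444_2 and 42.6 CPM in Embryo511_1 against at least 3893 CPM elsewhere, and the listed inner cell mass and hypoblast markers (6 of 8 in the table) summed to 257 and 323 CPM against at least 559 CPM. Of the latter, POU5F1 and GATA6 lay below the range of the other 10 pools in both, NANOG lay within it in both, PDGFRA lay above it in Embryo444_2 (166 CPM) and GATA4 lay above it in Embryo511_1 (94.2 CPM), where SOX17 had 0 reads. All measured trophectoderm markers were thus low in these 2 pools, and the inner cell mass and hypoblast markers were so only in part. Of other cell types, the leukocyte markers (3 of 6 in the table) summed to 72.9 to 698 CPM over all 12 pools, with 169 CPM in Embryo444_2 and 326 CPM in Embryo511_1. Of these, PTPRC, a leukocyte surface phosphatase, was highest in Embryo511_1 (254 CPM) and next highest in Embryo444_2 (121 CPM). CSF1R (67.4 and 43.9 CPM) and SPI1 (4.96 and 4.25 CPM) lay within the range of the other 10 pools in both. CSF1R was highest in Embryo410_2 (639 CPM). The uterine epithelium markers (4 of 5) summed to 58.6 to 129 CPM and the single cumulus marker in the table, HAS2, had 35 to 106 CPM, both highest in Embryo444_2. Of the uterine markers only MUC1 was highest there (53.1 CPM, at most 17.5 CPM elsewhere), while UPK1A, PGR and ESR1 lay within the range of the other pools. The part of these other cell types in the values of the 7 genes was not tested. The comparisons of the 7 genes between diets and between rams are given for all 12 pools and for the 10 others.

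ASNS, the asparagine synthetase that ATF4 induces when amino acids are scarce, had the widest range of ram means of the set, from 29.7 CPM for Ram511 to 276 CPM for Ram424. In the control group ASNS had 80.5 and 90.7 CPM in the pools of Ram410, 242 and 153 CPM in those of Ram423, and 157 and 48.8 CPM in those of Ram444. In the methionine group it had 246, 264, 287 and 309 CPM in the 4 pools of Ram424, 166 CPM in that of Ram498 and 29.7 CPM in that of Ram511. All 4 pools of Ram424 were above the other 8 pools, a pattern noticed in the values and shared by 1.82% of the 16488 genes tested. The lowest pools were the 2 that stood apart, at 4.17 and 6.85 times less than the median of the other 10. The diet groups overlapped with and without them.

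DDIT3, which encodes the stress transcription factor CHOP, rested on 5 to 33 reads per pool. Its levels were 24.8 and 23.4 CPM for Ram410, 13.6 and 14.1 CPM for Ram423, and 7.81 and 12.7 CPM for Ram444. The pools of Ram424 had 9.56, 14.2, 14.8 and 11.8 CPM, that of Ram498 had 3.01 CPM and that of Ram511 had 14.9 CPM. The 2 pools of Ram410 lay above all the others, as they did for 1.12% of all genes tested. The pool of Ram498 rested on 5 reads, for which the exact Poisson 95% interval was 1.62 to 11.7, and this interval covers counting error only.

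TRIB3, a pseudokinase that feeds back on ATF4 and CHOP, was the most even of the stress genes over the 12 pools, at 10.6 to 25.6 CPM (median 21.7) in the control group and 12.3 to 30.6 CPM (median 25.5) in the methionine group. SESN2, a leucine sensor that restrains the growth kinase mTORC1, had 26.2 to 94.96 CPM (median 70.8) in the control group and 33.2 to 77.1 CPM (median 61.9) in the methionine group. The groups overlapped for both genes, and the lowest pool for both was Embryo444_2. CHAC1, an enzyme that degrades glutathione, had the widest ratio of highest to lowest pool of the set, 25.8-fold. It had 1.43 to 36.9 CPM (median 9.56) in the control group and 8.47 to 28.8 CPM (median 13.9) in the methionine group. Its extremes were both control pools, with 2 reads in Embryo423_1 (exact Poisson 95% interval 0.242 to 7.22) and 52 reads in Embryo444_1. The other pool of Ram423 had 23.1 CPM, so pools of the same ram were 16.2-fold apart.

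PHGDH, which catalyses the first and committed step of serine synthesis, differed little outside 1 pool. It had 51.1 to 84.3 CPM (median 61.7) in the control group and 19.8 to 83.3 CPM (median 68.3) in the methionine group. Embryo511_1 held the lowest value, 3.37 times less than the median of the other 10 pools, while Embryo444_2 had 75.0 CPM, within their range. Among those 10 pools PHGDH varied only 1.65-fold from lowest to highest. PSAT1, the aminotransferase of the next step, behaved differently. Its control pools had 28.4 to 78.6 CPM (median 49.6), and in the methionine group Embryo424_3 had 141 CPM whereas the other 5 pools had 25.3 to 48.6 CPM. Within Ram424, the pools ranged 5.42-fold in PSAT1 and 1.28-fold in PHGDH. Exon lengths were not used, so levels were compared between pools and not between genes.

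**Figure D1:**
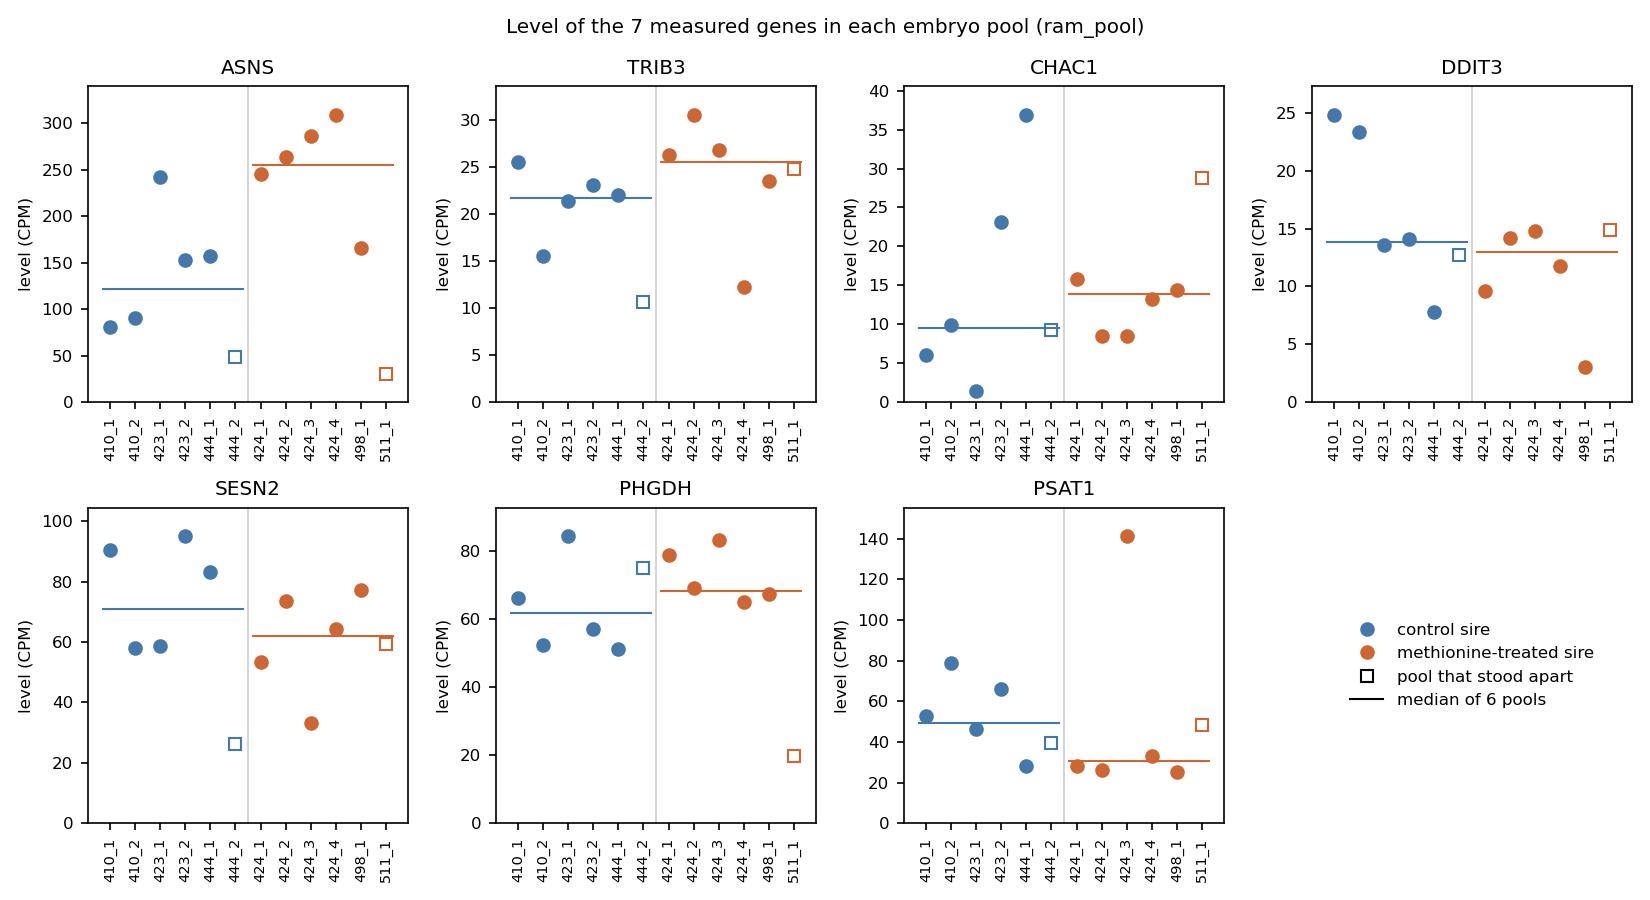
Level in CPM (y axis, from 0, a separate scale for each gene) of the 7 measured genes in each of the 12 embryo pools (x axis, ram and pool number). Filled circles are pools and open squares the 2 pools that stood apart, with the control group in blue and the methionine group in orange, and lines mark the median of the 6 pools of a diet. The 4 pools of Ram424 (246 to 309 CPM) lie above all others for ASNS, 1 pool of Ram424 (141 CPM) above the others for PSAT1, and the diet groups overlap for every gene.

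The spread of each gene over pools was set against all genes tested, as a description. The SD of log2 CPM (prior count 2) over 12 pools was 1.07 for ASNS and 1.01 for CHAC1, at percentiles 92.5 and 90.5 of all genes, whose median SD was 0.589. It was 0.731 for PSAT1 (percentile 70.3) and 0.676 for DDIT3 (percentile 63.6). TRIB3 had 0.440 (percentile 23.7), and SESN2 and PHGDH both had 0.543 (percentile 42.2). Over the 10 pools the median SD of all genes was 0.466. There PHGDH fell to 0.253 (percentile 5.81), whereas CHAC1 had 1.03 (percentile 97.6), PSAT1 0.805 (percentile 91.9) and DDIT3 0.743 (percentile 88.6). ASNS had 0.676 (percentile 83.2), SESN2 0.438 (percentile 43.6) and TRIB3 0.367 (percentile 27.4). In these 10 pools the 2 enzymes of serine synthesis were thus near opposite ends of the range, PHGDH among the more even genes and PSAT1 among the more variable. CHAC1 and DDIT3 had few reads per pool (2 to 52 and 5 to 33), and counting error is part of their spread.

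The 7 genes differed from each other in their place in the 2 pools that stood apart. All 6 trophectoderm markers lay below the range of the other 10 pools in both, by 4.18 to 149 times in Embryo511_1 and 5.86 to 109 times in Embryo444_2 relative to the median. Of the 7 genes, ASNS, TRIB3 and SESN2 lay below that range in Embryo444_2, while CHAC1, DDIT3, PHGDH and PSAT1 lay within it. In Embryo511_1 only ASNS and PHGDH of the 7 lay below, and the other 5 lay within. None of the 7 lay above. Over all genes tested, 24.6% lay below and 22.0% above the range in Embryo444_2, and 26.6% below and 24.9% above in Embryo511_1. PSAT1 was close to the median of the other pools in both (39.6 and 48.6 CPM against 39.7 CPM), as was DDIT3 (12.7 and 14.9 CPM against 13.8 CPM). ASNS was the only gene of the set below the range in both pools, and the share of all genes below it in both was not counted.

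**Figure D2:**
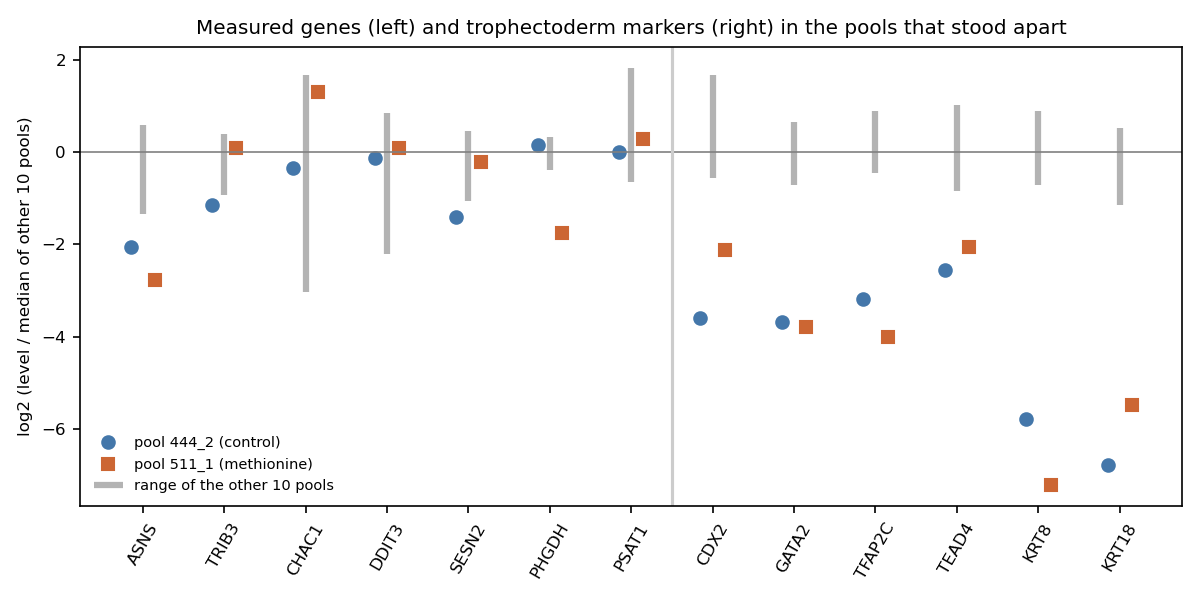
Level of each gene in the 2 pools that stood apart as log2 of its ratio to the median of the other 10 pools (y axis), for the 7 measured genes and 6 trophectoderm markers (x axis). Blue circles are Embryo444_2, orange squares Embryo511_1, and grey bars span the other 10 pools. Every trophectoderm marker lies below the grey bar in both pools, whereas of the 7 genes only ASNS does.

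To evaluate whether the paternal diet was related to these genes, methionine and control pools were compared by the quasi-likelihood test of edgeR, with the Benjamini-Hochberg false discovery rate (FDR) taken over all genes tested. None of the 7 genes passed FDR 0.05, and 0% of all genes did. At an unadjusted p under 0.05 the count was 0 of 7, against 7.92% of all genes. Nor did any of the 7 pass with the likelihood-ratio test of edgeR, which called 5 genes of all, or with DESeq2, which called 16. The levels of ASNS were 129 ± 69.8 CPM (SD, n = 6) in the control group and 217 ± 104 CPM (SD, n = 6) in the methionine group, a log2 fold change of 0.76 (SE 0.46, edgeR quasi-likelihood FDR 0.703). The others lay between -0.51 (SE 0.40) for DDIT3 and 0.28 (SE 0.30) for TRIB3, with FDR of 0.758 and 0.828 in the same edgeR test. Without Embryo498_1 the log2 fold change of DDIT3 was -0.31 and without both pools of Ram410 -0.10, and that of TRIB3 was 0.16 without Embryo444_2. PHGDH was at 64.4 ± 13.3 CPM and 63.9 ± 22.7 CPM (SD, n = 6 each), with a 95% confidence interval of the log2 fold change from -0.61 to 0.61. That of CHAC1 ran from -1.15 to 1.19, so that a difference of more than 2-fold in either direction lay within it.

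Without the 2 pools that stood apart, again none of the 7 passed, and 0.00607% of all genes did. ASNS was the 1 gene of the 7 with an unadjusted p under 0.05, against 11.9% of all genes. It had 145 ± 64.7 CPM in 5 control pools and 254 ± 55.0 CPM in 5 methionine pools (SD), a log2 fold change of 0.81 (SE 0.29, 95% interval 0.20 to 1.41, edgeR quasi-likelihood FDR 0.319). An exact two-sided permutation test of log2 CPM over 252 assignments gave p = 0.0159 for these 10 pools, and over 924 assignments p = 0.318 for all 12. Of the 5 methionine pools, 4 were from Ram424, and the other, Embryo498_1, had 166 CPM, within the range of the 5 control pools (80.5 to 242 CPM). Among all 12 pools, the log2 fold change of ASNS was -0.39 with the 4 pools of Ram424 left out, which leaves Embryo498_1 and the low Embryo511_1 as methionine pools, and between the means of 3 and 3 rams, where 20 assignments allow no p under 0.1, the exact permutation p was 1. The log2 fold change of PSAT1 was -0.05 (SE 0.42) in 12 pools and -0.70 without Embryo424_3, its highest pool. It was also 0.15 without both pools of Ram410 and -0.50 without those of Ram424. Without Embryo424_3, PSAT1 had an unadjusted p under 0.05 (edgeR quasi-likelihood FDR 0.650), as had 1232 of the 16488 genes tested. Of the 7 genes, 0 had diet groups that did not overlap, in 12 as in 10 pools, against 0.352% and 1.76% of all genes.

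**Figure D3:**
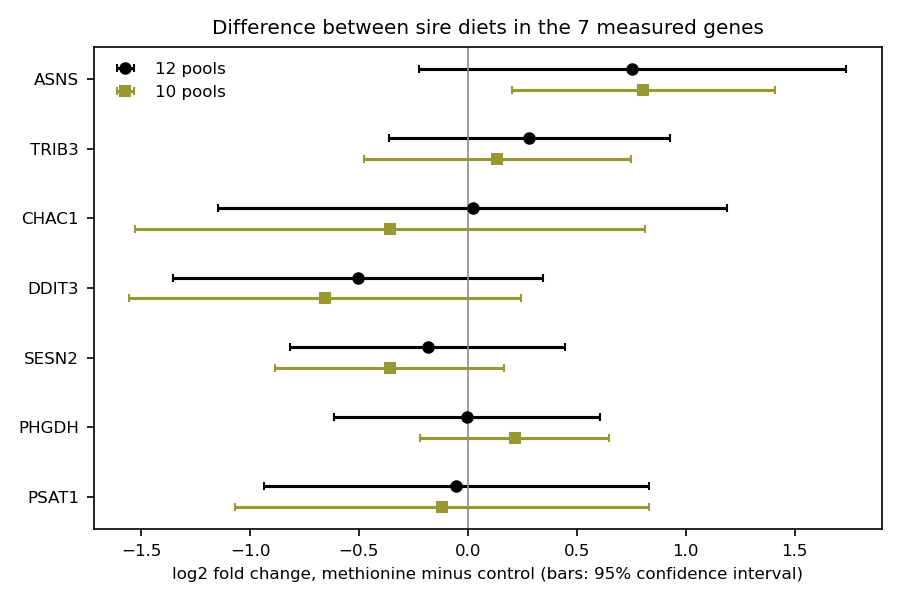
Log2 fold change of methionine against control pools (x axis) for the 7 measured genes (y axis) from the edgeR quasi-likelihood fit. Black circles are the fit of 12 pools, yellow-green squares that of the 10 pools without the 2 that stood apart, and bars are 95% confidence intervals. In 12 pools every interval crosses 0, and in 10 pools that of ASNS (0.20 to 1.41) does not, although its FDR is 0.319.

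Families within a diet were then compared, by a quasi-likelihood F test of the 4 contrasts between rams on the same diet. None of the 7 genes passed FDR 0.05, whereas 3.97% of all genes did. ASNS came nearest (edgeR quasi-likelihood FDR 0.0566), followed by PHGDH (FDR 0.148) and DDIT3 (FDR 0.181). These were 3 of 7 genes with an unadjusted p under 0.05, against 23.7% of all genes. Among the control rams alone, each with 2 pools, 0 of the 16488 genes passed FDR 0.05 in a test of 2 contrasts. There ASNS had an edgeR quasi-likelihood FDR of 0.904. The FDR of ASNS crossed the threshold with the likelihood-ratio test of edgeR (FDR 0.00088), and in the quasi-likelihood test when Embryo444_1, Embryo444_2 or Embryo498_1 was left out. These settings also called more of the 16488 genes, namely 2834 with the likelihood-ratio test and 3768, 2104 and 1045 without these pools in turn, against 654. Without Embryo511_1, 2 genes were called and ASNS had an edgeR quasi-likelihood FDR of 0.585. Leaving out Embryo498_1 or Embryo511_1 removed a whole ram, so those tests had 3 contrasts. Without Embryo444_1, Ram444 was left with Embryo444_2 alone, a pool that stood apart. With the 2 pools that stood apart left out, in a test of 3 contrasts, 0 of 7 passed FDR 0.05 against 0.188% of all genes. ASNS (edgeR FDR 0.299) and DDIT3 (FDR 0.383) had an unadjusted p under 0.05, against 10.3% of all genes. PHGDH then had an edgeR FDR of 0.861, without Embryo511_1, its lowest pool. Pools of the same ram were as close as 1.04-fold (DDIT3, Ram423) and 1.06-fold (DDIT3, Ram410), and as far apart as 5.42-fold (PSAT1, Ram424) and 16.2-fold (CHAC1, Ram423). DDIT3 and CHAC1 rested on few reads, with lowest counts of 5 and 2. For ASNS the fold was 1.13 in Ram410, 1.59 in Ram423, 1.26 over the 4 pools of Ram424 and 3.21 in Ram444, which includes a pool that stood apart.

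Genes of a shared response could move together across pools, and all 21 pairs of the 7 genes were compared by Pearson's r of log2 CPM. No pair passed after Benjamini-Hochberg adjustment over 21 pairs, in 12 pools (r from -0.60 to 0.68) or in 10 pools (r from -0.64 to 0.60), and r was above 0 in 8 and 6 pairs. PHGDH and PSAT1, consecutive enzymes of 1 pathway, had r = 0.10 in 10 pools (permutation p = 0.776, adjusted p = 0.980) and Spearman's rho = -0.09 (permutation p = 0.810). ASNS and PHGDH had r = 0.68 in 12 pools (permutation p = 0.0162, adjusted p = 0.339, rho = 0.49 with p = 0.109), and r = 0.60 in 10 pools (permutation p = 0.0694, adjusted p = 0.383), which are also those left after removal of the 2 pools farthest from the median of ASNS. DDIT3 and PSAT1 had r = 0.59 in 12 pools (permutation p = 0.0492, adjusted p = 0.450, rho = 0.74 with p = 0.00763 and adjusted p = 0.160), r = 0.59 in 10 pools (permutation p = 0.0729) and r = 0.63 without the 2 pools farthest from the median of DDIT3. CHAC1 and PHGDH had r = -0.60 in 12 pools (permutation p = 0.0642, adjusted p = 0.450, rho = -0.69 with p = 0.0153 and adjusted p = 0.160). In 10 pools CHAC1 and PHGDH had r = -0.64 (permutation p = 0.0401, adjusted p = 0.383) and rho = -0.61 (permutation p = 0.0664, adjusted p = 0.465). With 1 mean per ram (6 rams, 720 pairings), the exact permutation p was 0.00278 for ASNS and PHGDH (r = 0.90) and 0.00556 for DDIT3 and PSAT1 (r = 0.94), both 0.0583 after adjustment. Since 0.00278 is the smallest two-sided p that 720 pairings allow, a single pair could not pass 0.05 after adjustment over 21 pairs. The mean of Ram511 is the single pool Embryo511_1, lowest of all for both ASNS and PHGDH, and among the 6 control pools r of these 2 genes was 0.0044. The mean of Ram498 is the single pool Embryo498_1, lowest of all for both DDIT3, with 5 reads, and PSAT1. Among the 6 control pools r of DDIT3 and PSAT1 was 0.79. Pools of a ram share the sire, so the pool values are not independent points.

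The genes whose log2 CPM was most like that of each of the 7 over the 12 pools were ranked by r among the other 16487 genes tested, as a description. ASNS was most like TSN (r = 0.97) and BID (r = 0.96), with 0.91 and 0.90 over the 10 pools. TRIB3 was most like its own relative TRIB1 (r = 0.86 in 12 and in 10 pools) and then RRP12 (r = 0.85). SESN2 was most like CDKN2B (r = 0.90) and ZNF704 (r = 0.88), CHAC1 like CBLN1 and ALKBH6 (r = 0.90 each), and DDIT3 like STK39 (r = 0.85) and TRAF1 (r = 0.83). PHGDH was most like SETD4 (r = 0.96) and LONRF1 (r = 0.95), with 0.80 and 0.81 over the 10 pools, and PSAT1 like the hormone gene GCG (r = 0.89) and the glucose-6-phosphatase gene G6PC (r = 0.88). None of the 7 genes was among the 2 most like another. TRIB1 itself had 76.96 ± 32.8 CPM in the control group and 88.7 ± 32.7 CPM in the methionine group (SD, n = 6 each, edgeR quasi-likelihood FDR 0.890).

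The rest of the pathway was covered by 6 lists of 104 genes, of which 94 were in the table and 90 were tested. No gene of any list passed FDR 0.05 for diet in the edgeR quasi-likelihood test, with 12 or 10 pools. At an unadjusted p under 0.05, 5 genes were higher and 3 lower in methionine pools with 12 pools, where 7.92% of all genes had such a p, and 14 of 90 had one with 10 pools, 9 of them higher, where 11.9% of all genes did. The median log2 fold change of the 90 genes was 0.12, against 0.01 over all genes tested. Values with an unadjusted p are given as such below, since none passed the FDR. In the 10 pools, 4 of the 5 methionine pools were from Ram424, so the methionine values there rest largely on 1 family. With the pools of a ram summed, 0 list genes passed FDR 0.05 for diet.

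Upstream, a list of 15 genes held the eIF2 kinases, GCN1, IMPACT, eIF2, its exchange factor, PPP1R15A and PPP1R15B. Its median log2 fold change was 0.15. The kinase GCN2 (EIF2AK4) had -0.09 (SE 0.27) and PERK (EIF2AK3) -0.00 (SE 0.27). EIF2S2, the beta subunit of eIF2, had 44.3 ± 16.3 CPM in control and 83.1 ± 38.5 CPM in methionine pools (SD, n = 6 each), a log2 fold change of 0.91 (SE 0.35, edgeR quasi-likelihood FDR 0.585). Its highest levels were in Embryo424_1 (135 CPM) and Embryo424_2 (125 CPM), and the groups overlapped. In the 10 pools the log2 fold change of EIF2S2 was 0.78 (SE 0.29, edgeR FDR 0.342). EIF2AK2, the kinase PKR, was next by p, with 0.39 in 12 pools (SE 0.25, edgeR FDR 0.718) and 0.33 in 10.

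Among 21 other ATF4 target genes the median was 0.09, and the genes with small p lay in both directions. The amino acid transporter SLC1A4 had 67.0 ± 24.7 CPM in control and 38.5 ± 6.84 CPM in methionine pools (SD, n = 6 each), with log2 fold changes of -0.80 (SE 0.27, edgeR quasi-likelihood FDR 0.584) and -0.96 (SE 0.25, FDR 0.240) in 12 and 10 pools. The cationic amino acid transporter SLC7A1 had 172 ± 47.7 CPM and 109 ± 24.6 CPM, with log2 fold changes of -0.66 (SE 0.27, edgeR FDR 0.596) and -0.85 (SE 0.21, FDR 0.240). In the 10 pools SLC7A1 was at 143 to 207 CPM in control pools and 80.8 to 141 CPM in methionine pools, without overlap, and Embryo444_2, a control pool, was at 87.1 CPM. Of the other transporters of the list, SLC3A2 (0.33, SE 0.37), SLC1A5 (0.29, SE 0.34), SLC6A9 (0.18, SE 0.29) and SLC38A2 (0.02, SE 0.44) lay on the other side of 0 in 12 pools. SLC7A5 lay on the same side as SLC1A4 and SLC7A1 (-0.15, SE 0.66). ATF5, a transcription factor related to ATF4, had a log2 fold change of 1.16 (SE 0.51, edgeR FDR 0.608) that came from Embryo511_1 (169 CPM) and Embryo498_1 (80.7 CPM), the other 10 pools being at 12.8 to 32.6 CPM. Without the 2 pools that stood apart the log2 fold change of ATF5 was 0.44 (SE 0.40). STC2, a secreted glycoprotein, had -0.80 in 12 pools (SE 0.37, edgeR FDR 0.619) and -0.54 in 10. ATF5 and JDP2 differed among rams within a diet in 12 pools (edgeR FDR 0.0178 and 0.0163) and not in 10 (FDR 0.350 and 0.908).

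The list of serine, glycine and one-carbon genes next to PHGDH and PSAT1 had 15 genes tested and a median of 0.04 in 12 pools and -0.05 in 10. An unadjusted p under 0.05 was found for 2 of 15 in 12 pools (DLD and GLDC, against 7.92% of all genes) and for 7 of 15 in 10 pools (against 11.9%), of which 6 were higher in methionine pools (SHMT2, MTHFD1L, ALDH1L2, GLDC, AMT and DLD) and SDS was lower. The genes beyond DLD and GLDC are named after their values were seen. Of the 5 methionine pools among the 10 pools, 4 were from Ram424, so the count of 7 treats pools of 1 family as replicates. SHMT2 converts serine to glycine in mitochondria, MTHFD1L and ALDH1L2 handle the mitochondrial folate one-carbon units, and GLDC, AMT and DLD are subunits of the glycine cleavage system. GLDC had 187 ± 83.9 CPM in control and 381 ± 306 CPM in methionine pools (SD, n = 6 each), a log2 fold change of 1.03 (SE 0.49, edgeR quasi-likelihood FDR 0.630) in 12 pools and 1.06 (SE 0.42, FDR 0.355) in 10. Its level was 772 and 778 CPM in Embryo424_1 and Embryo424_2 and 97.7 to 331 CPM in the other 10 pools. SHMT2 showed the same order, with 433 and 691 CPM in these 2 pools and at most 230 CPM elsewhere, and a log2 fold change of 1.09 (SE 0.53, edgeR FDR 0.645) in 12 pools and 1.23 (SE 0.43, FDR 0.316) in 10. DLD had 113 and 117 CPM in them and 34.0 to 61.0 CPM in the others. Embryo424_1 and Embryo424_2 were also the most alike of all pools (Spearman 0.955). In contrast, PHGDH had 78.9 and 69.1 CPM and PSAT1 28.2 and 26.0 CPM in these 2 pools, within the range of the other pools for both.

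The remaining lists held few genes of small p. In the ER unfolded protein response (15 genes, median 0.13), the first 2 by p were DNAJC3, an inhibitor of PERK, with 0.39 (SE 0.33, edgeR FDR 0.780), and MANF, a secreted ER stress protein, with -0.73 (SE 0.65, FDR 0.791). In the 10 pools DNAJC3 was on the other side of 0, at -0.04 (SE 0.23), and MANF, at -0.79 (SE 0.34, edgeR FDR 0.387), was the first by p. In amino acid sensing and mTORC1 (20 genes, median 0.07), SEH1L, a subunit of the GATOR complex with which SESN2 interacts and also of the nuclear pore, had 78.9 ± 24.1 CPM in control and 124 ± 28.4 CPM in methionine pools (SD, n = 6 each, log2 fold change 0.65, SE 0.27, edgeR FDR 0.607), and its log2 fold change in the 10 pools was 0.55 (SE 0.19). There its control range was 77.2 to 99.3 CPM and its methionine range 101 to 160 CPM, without overlap. CASTOR1, an arginine sensor, had 0.73 in 12 pools (SE 0.40, edgeR FDR 0.666) and 0.67 in 10. SLC7A1, SEH1L and SDS were the 3 list genes without overlap in 10 pools, where 1.76% of all genes had none, and 0 list genes were without overlap in 12 pools. Among 4 relatives of the set (TRIB1, TRIB2, CHAC2 and CREB1) the median was 0.09, and TRIB2 had -0.70 in 12 pools (SE 0.51, edgeR FDR 0.742) and 0.08 in 10. Between rams within a diet, 5 list genes passed FDR 0.05 in 12 pools (ATF5, JDP2, XBP1, ITFG2 and TSC2), against 3.97% of all genes, and 0 in 10, against 0.188%.

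**Figure D4:**
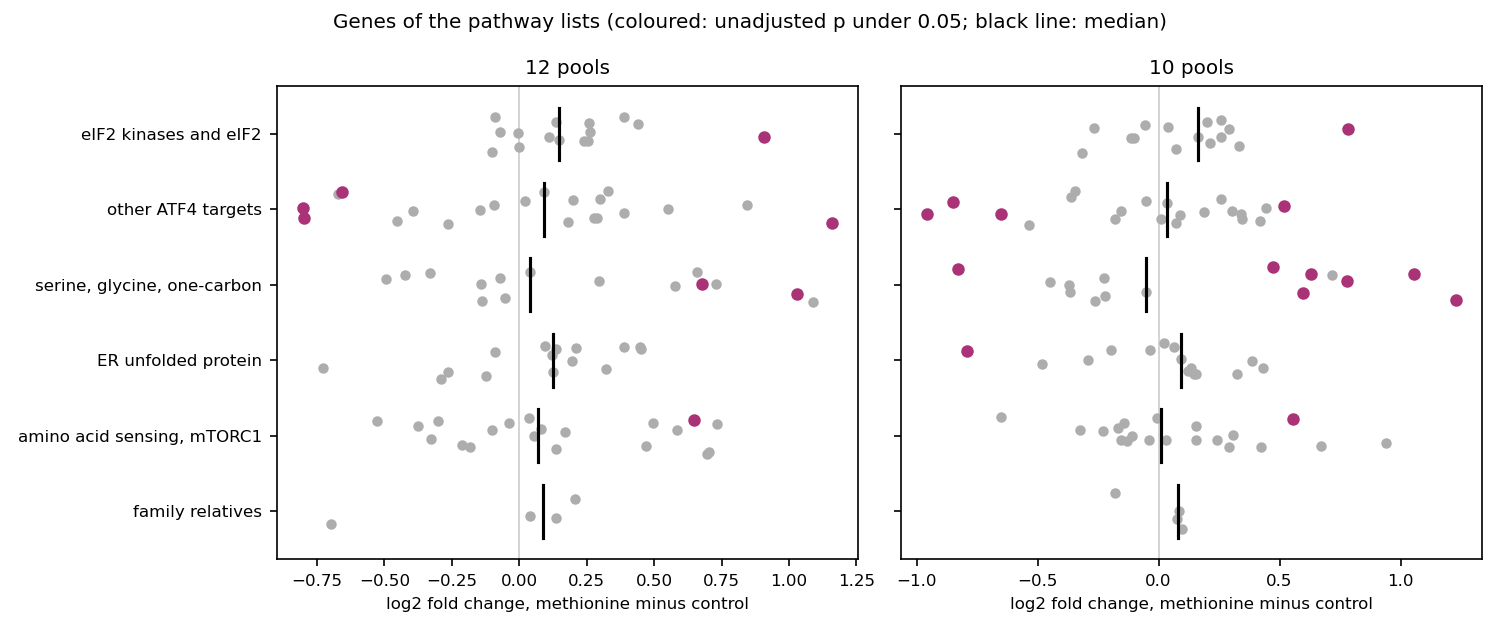
Log2 fold change of methionine against control pools (x axis) for the 90 tested genes of 6 pathway lists (y axis, genes spread vertically at random), with 12 pools on the left and 10 on the right. Each point is a gene, purple points have an unadjusted p under 0.05 (8 and 14 genes), and black lines mark the median of a list. No point passed FDR 0.05, and 7 of the 14 purple points with 10 pools belong to the serine, glycine and one-carbon list. In the 10 pools, 4 of the 5 methionine pools are from Ram424.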

How the data were processed

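RNA of 12 embryo pools was amplified with a whole transcriptome kit without molecular identifiers. The authors trimmed the reads with Trimmomatic, aligned them to Oar_rambouillet_v1.0 with STAR and deposited raw counts per gene and pool. Whether reads were counted by strand is not given in the sources used here. Pools were grouped by the diet and ram in the labels. The filter kept genes reaching 15 counts in more than 3 pools. Diet and ram were tested by quasi-likelihood (edgeR 4.0.16, R 4.3.3) after TMM scaling, at FDR under 0.05. CPM uses TMM-scaled library sizes. Alternatives were the likelihood-ratio test, DESeq2 1.42.0, RLE scaling, other filters, summed pools of a ram, limma 3.58.1 with the ram as a random effect, and pools or rams left out. Leaving out the 2 pools that stood apart was planned as a rule on the lowest median Spearman correlation. Python 3.11.15 with scipy 1.17.1 gave the permutation tests (100000 resamples, or exact) and numpy 2.4.6, pandas 2.3.3 and matplotlib 3.10.9 the rest. Embryo424_1 and Embryo424_2 differed by a chi-square of 3.31 per gene, above sampling noise and below every other pair (at least 8.45), and were kept as separate pools. Genes named are the members, the 2 of smallest p in each list, those past the threshold and the 2 most like each member. EIF2AK3, EIF2AK4, STC2, the transporters beyond SLC1A4 and SLC7A1, the further one-carbon genes and some single marker genes were named after their values were seen. The members and lists were chosen with earlier results of these data known. Sperm methylation was not used here, since its positions could not be placed in genes with the gene table at hand. All pairs of members were compared after seeing the data, because the planned pairs with ATF4 and PSPH could not be formed.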

Additional observations from a re-analysis of the deposited data

Results flagged for a closer look

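Within a diet group of 6 pools, 5 of the 14 groups tested (7 genes in each diet) held a pool far from the others, its gap to the nearest pool divided by the range of the group on the log2 CPM scale being above 0.625. Chance gives about 1 in 20 such groups. That share assumes independent pools, whereas 4 of the 6 methionine pools are from 1 ram. All 5 were in the methionine group. ASNS was far lower in Embryo511_1 than in the other 5 pools (0.730 of the range), and so was PHGDH in the same pool (0.823), the methionine pool with low trophectoderm markers. TRIB3 was lowest in Embryo424_4 (0.705) and DDIT3 in Embryo498_1 (0.699), where it rested on 5 reads. PSAT1 was highest in Embryo424_3 (0.625), with 200 reads.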

How the results depend on the processing

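No gene of the 7 passed FDR 0.05 for diet in any of the 27 alternatives fitted across genes in which it was tested. CHAC1 and DDIT3 did not reach the filter of 15 counts in all 12 pools and were not tested there. The direction held for TRIB3 and DDIT3 where tested, at 0.14 to 0.42 and -0.89 to -0.10. For CHAC1 (log2 fold change 0.02 in 12 pools) it turned to -0.36 without the 2 pools that stood apart, and leaving out single pools or rams gave a lowest value of -0.27 and a highest of 0.57. For PHGDH (-0.00) it was 0.013 with RLE scaling, 0.011 without a filter, 0.015 with DESeq2 and 0.22 without the 2 pools, and -0.54 to 0.18 with single pools or rams left out. For PSAT1 (-0.05) it was 0.073 with Embryo424_1 and Embryo424_2 summed, and -0.70 to 0.15 with pools or rams left out. For ASNS it was -0.020 between ram means and -0.39 to 1.20 with pools or rams left out, the lowest without Ram424, and for SESN2 -0.35 to 0.0021. PHGDH with PSAT1 had r = -0.01 in 12 pools and 0.10 in 10. The count of the 7 genes that differed among rams within a diet was 0. It was also 0 among the control rams alone, where 0 of all genes were called. With the likelihood-ratio test it was 1 (ASNS), and that test called 2834 of all genes against 654. With single pools left out it was 0 to 1. It was 1 without Embryo444_1, Embryo444_2 or Embryo498_1, where 3768, 2104 and 1045 of all genes were called. The cause was not tested. Pairs with ATF4 or PSPH and the sperm methylation comparison were not run. No paired analysis was possible because the groups share no replicate numbers. Depth limits CHAC1 and DDIT3, with 265 and 246 reads over 12 pools.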
